A study of Mus musculus with 12 samples.

Results

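The genes described here are the Vps, Snx and Chmp genes of endosomal sorting in cultured mouse neurons after 2 acute injuries. Members were chosen by symbol alone, as the rows of the counts table whose symbol starts with Vps, Snx or Chmp followed by a digit. No measured value entered the rule, but these gene families were themselves chosen with earlier results of these data known. Shares of members that rose or fell, set beside those of all genes, therefore cannot be taken as independent of the data. The rule found 72 of the 22899 genes in the table, of which 32 are Vps, 30 Snx and 10 Chmp genes. The filter on low counts kept 68 of them among 13139 genes tested. The members left out were Chmp4c, Snx20, Vps25 and Vps54.

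The series sequenced RNA libraries made from total RNA of primary neurons of the C57Bl6 mouse strain, in 4 groups of 3 libraries. The OGD group was deprived of oxygen and glucose, a culture model of ischaemia, and the KA group received 100 µM kainic acid, an agonist of kainate-type glutamate receptors, in the culture medium. Each injury had its own control group with no treatment, named OGD control and KA control. The brain region, the age of the animals, the length of each injury and the time of harvest were not stated in the labels, and no transgene or deletion is named. Nothing in the labels says that the replicates came from separate cultures, so p-values here cover library-to-library spread that could be purely technical.

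Endosomes receive membrane proteins from the cell surface and decide whether each is recycled, sent back to the Golgi or degraded in the lysosome. Retromer and the sorting nexins, which bind phosphoinositides through a PX domain, form the coats and tubules of the return routes. The ESCRT complexes, with the Chmp proteins as their filament-forming subunits, pinch ubiquitinated cargo into intraluminal vesicles, and the HOPS and CORVET tethers bring endosomes together with one another and with lysosomes. Neurons depend on these routes for the turnover of glutamate receptors, neurotrophin receptors and the amyloid precursor protein, and human mutations in several members cause neurodegenerative disease.

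Library totals ran from 12873444 to 21142267 counts, and the members took 0.399 to 0.409% of all counts in KA, 0.567 to 0.577% in KA control, 0.492 to 0.499% in OGD and 0.456 to 0.459% in OGD control. The 4 ranges did not overlap. Levels below are in CPM, the standard depth-scaled counts unit, with the library size scaled by the trimmed mean of M values (TMM), listed in the order of replicates 1, 2 and 3. The TMM factors were 0.912 to 0.935 in KA and 1.102 to 1.109 in KA control. Fold changes are log2 values ± SE from edgeR's quasi-likelihood test over all 12 libraries. The adjusted p (Benjamini-Hochberg) covers all 13139 genes, and "rose" or "fell" means an adjusted p under 0.05.

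After KA most endosomal sorting genes were lower than in the KA control: 49 of 68 fell and 11 rose, with a median of -0.40 (-0.24 over the 36 tested members with 1 transcript). Over all genes tested, 37.6% fell and 35.2% rose, with a median of -0.02. Among the members, 12 fell and 4 rose by more than 2-fold. The share of all genes past 2-fold was not counted for either injury, so the numbers past 2-fold have no baseline here. After OGD the split was the other way and the changes were small: 24 rose and 6 fell, with a median of 0.08 and no member past 2-fold. The share of all genes that rose after OGD was 17.6%, 20.5% fell, and the median over all genes was 0.01. In these bulk libraries, fewer cells of a type and less RNA per cell cannot be told apart.

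**Figure D1:**
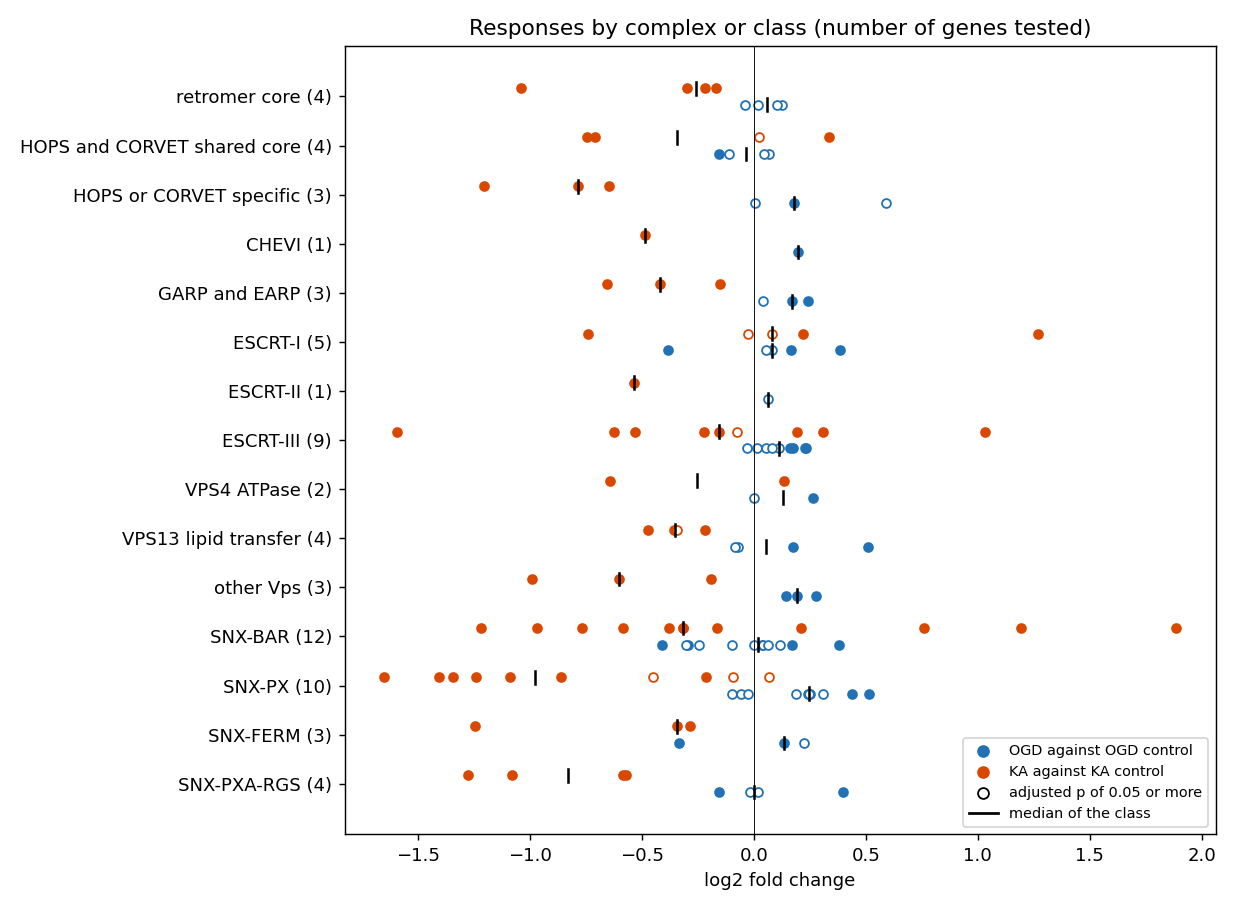
Log2 fold change of each of the 68 tested members (x axis) by complex or class (y axis, number tested in brackets), with OGD against OGD control in blue and KA against KA control in orange. Filled points have an adjusted p under 0.05, and black bars are class medians; all 4 retromer genes lie left of 0 after KA, and ESCRT-III spans from -1.59 (Chmp6) to 1.03 (Chmp1b).

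Retromer takes cargo from endosomes to the Golgi and the cell surface. All 4 core genes fell after KA, beside 37.6% of all genes tested. After OGD no core gene passed edgeR's test or DESeq2's, and 1 was higher at an unadjusted p under 0.05. Vps35 (chr8:85260392-85299802), the scaffold of the complex and a Parkinson's disease gene in humans, was at 273, 279 and 295 CPM in OGD control, 271, 277 and 273 in OGD, 339, 354 and 344 in KA control and 303, 261 and 280.1 in KA. All KA libraries were below all KA control libraries, while OGD and OGD control overlapped. The KA fold change was -0.30 ± 0.05, adjusted p = 1.94e-06, and the OGD fold change was -0.04 ± 0.05, adjusted p = 0.529. Vps26b (chr9:27007771-27030065), one of the paralogous arrestin-like subunits that contact sorting nexins, was at 267, 278 and 272 CPM in OGD control, 267, 279.9 and 279.9 in OGD, 292, 317 and 306 in KA control and 270.4, 265 and 251 in KA. Its KA libraries were again the lower ones without overlap (-0.22 ± 0.04, adjusted p = 6.07e-05), and the OGD value was 0.02 (adjusted p = 0.794).

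Vps29, the subunit that contacts the regulators of retromer, was at 96.8, 101 and 103 CPM in OGD control, 108, 108 and 107 in OGD, 97.7, 94.4 and 100.1 in KA control and 91.04, 85.1 and 83.8 in KA. KA lay below its control without overlap (-0.17 ± 0.05, adjusted p = 0.00221). Every OGD library was above every OGD control library, but the difference did not pass the test (0.10 ± 0.05, adjusted p = 0.0795). Vps26a, the other arrestin-like paralogue, was listed at low levels of 0.993, 1.43 and 1.34 CPM in OGD control, 1.44, 1.34 and 1.399 in OGD, 2.98, 2.45 and 2.402 in KA control and 1.05, 1.12 and 1.66 in KA. KA control was the highest group in each of its libraries, and the KA fold change was -1.04 ± 0.21, adjusted p = 7.32e-05. Vps35, Vps26a and Vps26b in KA differed from the OGD control by -0.01, -0.02 and -0.05 (adjusted p = 0.931, 0.954 and 0.307), and KA control was the highest group for all 3. Vps29 in KA was below OGD control as well, without overlap (-0.21 ± 0.05, adjusted p = 0.000406).

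Of the 7 tested Vps genes of the HOPS and CORVET tethers, 5 fell and 1 rose after KA, and 1 rose and 1 fell after OGD. Subunits without the prefix are not in this count. The shares of all genes were 37.6% and 35.2% after KA and 17.6% and 20.5% after OGD. HOPS acts between late endosomes and lysosomes and CORVET between early endosomes, around a shared core of Vps11, Vps16, Vps18 and Vps33a. Vps33a, the SNARE-binding subunit, was at 134, 132 and 132 CPM in OGD control, 135, 139 and 137 in OGD, 166, 171 and 166 in KA control and 102, 100.1 and 106 in KA, and Vps16, which anchors Vps33a, was at 77.1, 73.5 and 72.2 CPM in OGD control, 81.9, 75.1 and 76.5 in OGD, 97.9, 100.1 and 97.7 in KA control and 57.8, 61.6 and 56.4 in KA. In both genes KA was the lowest group and KA control the highest, with no overlap between them. The KA fold change was -0.71 ± 0.04, adjusted p = 4.85e-15 for Vps33a and -0.75 ± 0.05, adjusted p = 4.85e-14 for Vps16. Neither passed the test after OGD, with values of 0.04 and 0.07.

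The other pair of core genes did not follow. Vps18 was at 77.7, 75.8 and 70.6 CPM in OGD control, 69.4, 64.4 and 73.6 in OGD, 57.2, 62.99 and 67.3 in KA control and 79.2, 82.02 and 75.01 in KA. KA lay above its control in all libraries and the gene rose (0.33 ± 0.06, adjusted p = 1.09e-05), while OGD overlapped its control. Vps11 was at 90.3, 85.04 and 86.4 CPM in OGD control, 76.6, 79.1 and 79.2 in OGD, 90.7, 93.99 and 92.5 in KA control and 91.8, 93.2 and 96.9 in KA. The OGD libraries were all lower and the gene fell (-0.15 ± 0.05, adjusted p = 0.00904), whereas the KA groups overlapped (0.02, adjusted p = 0.659). The responses to KA and OGD differed for all 4 core genes, with differences (KA response minus OGD response) of -0.81 for Vps16, -0.75 for Vps33a, 0.45 for Vps18 and 0.18 for Vps11 (adjusted p at most 0.0175).

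Vps41, a HOPS subunit that also takes part in the formation of regulated secretory vesicles, was at 162, 169 and 171 CPM in OGD control, 192, 189 and 189 in OGD, 216, 226 and 222 in KA control and 132, 123 and 131 in KA. Its KA libraries were the lowest and its OGD libraries lay above OGD control, so it fell after KA (-0.79 ± 0.04, adjusted p = 5.83e-16) and rose after OGD (0.18 ± 0.04, adjusted p = 0.00145). Vps39, the other HOPS-specific subunit, was listed near 1 CPM, at 0.8403, 0.537 and 0.244 CPM in OGD control, 0.689, 0.623 and 1.06 in OGD, 1.404, 1.55 and 0.971 in KA control and 0.727, 0.674 and 0.249 in KA. KA was below KA control without overlap (-1.204 ± 0.35, adjusted p = 0.00306), and with so few counts the OGD value of 0.59 had an SE of 0.40. Vps8, a CORVET subunit, fell after KA (-0.65 ± 0.18, adjusted p = 0.00242) although its KA and KA control libraries overlapped.

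Upstream sequence is shown for Vps16, Vps33a and Snx18, which are all among the 6 of 47 searched members with a CACGTG match. Among these carriers, the binding partners Vps16 and Vps33a had like fold changes after KA, and Snx18 moved the other way. The sequences shown therefore do not tell how common the match is among members, or among those that responded to KA. Each is the 250 bases before a RefSeq transcript start in GRCm38.p6, 5′ to 3′ on the gene's strand, at chr2:130424070-130424319 (plus), chr5:123573016-123573265 (minus) and chr13:113618565-113618814 (minus). Capitals mark CACGTG, the E box at the centre of the element bound by lysosomal-gene factors of the TFEB family.
Vps16: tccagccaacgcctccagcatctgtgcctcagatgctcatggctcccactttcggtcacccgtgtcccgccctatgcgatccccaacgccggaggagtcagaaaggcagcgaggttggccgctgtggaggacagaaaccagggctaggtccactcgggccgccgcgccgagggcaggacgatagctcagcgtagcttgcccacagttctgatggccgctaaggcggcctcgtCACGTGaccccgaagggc
Vps33a: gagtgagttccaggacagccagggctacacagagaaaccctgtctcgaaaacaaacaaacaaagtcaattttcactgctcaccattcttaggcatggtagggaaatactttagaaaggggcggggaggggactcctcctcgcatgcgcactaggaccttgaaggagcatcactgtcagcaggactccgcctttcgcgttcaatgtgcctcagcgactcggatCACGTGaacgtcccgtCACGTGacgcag
Snx18: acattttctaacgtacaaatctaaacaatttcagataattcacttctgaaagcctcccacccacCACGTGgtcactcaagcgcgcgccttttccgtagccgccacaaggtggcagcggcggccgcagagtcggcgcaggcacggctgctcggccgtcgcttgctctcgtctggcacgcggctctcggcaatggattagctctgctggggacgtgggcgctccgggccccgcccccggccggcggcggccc
Vps16 held 1 such hexamer, Vps33a 2 and Snx18 1. In windows that also take in the 50 bases after the start, CACGTG occurred in 7 of 58 windows (12.1%), which came from the 47 members with a window in the RefSeq promoter table, against 7.15% of all 32851 windows in it. Those 6 genes were Vps16, Vps33a, Vps26a, Snx5, Snx8 and Snx18. After KA 4 of them fell and 2 rose, beside 37.6% and 35.2% of all genes. The CRE TGACGTCA was in 1 member window (Chmp2a, 1.72% against 1.79% of all windows), and the AP-1 motif TGANTCA in 4 (Vps13d, Snx10, Snx29 and Vps37c, 6.90% against 7.81%). Both strands were searched. The letters ACGT are common to the E box and the CRE, but no match of one motif in a member lay on a match of another. A match describes letters, not binding.

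**Figure D2:**
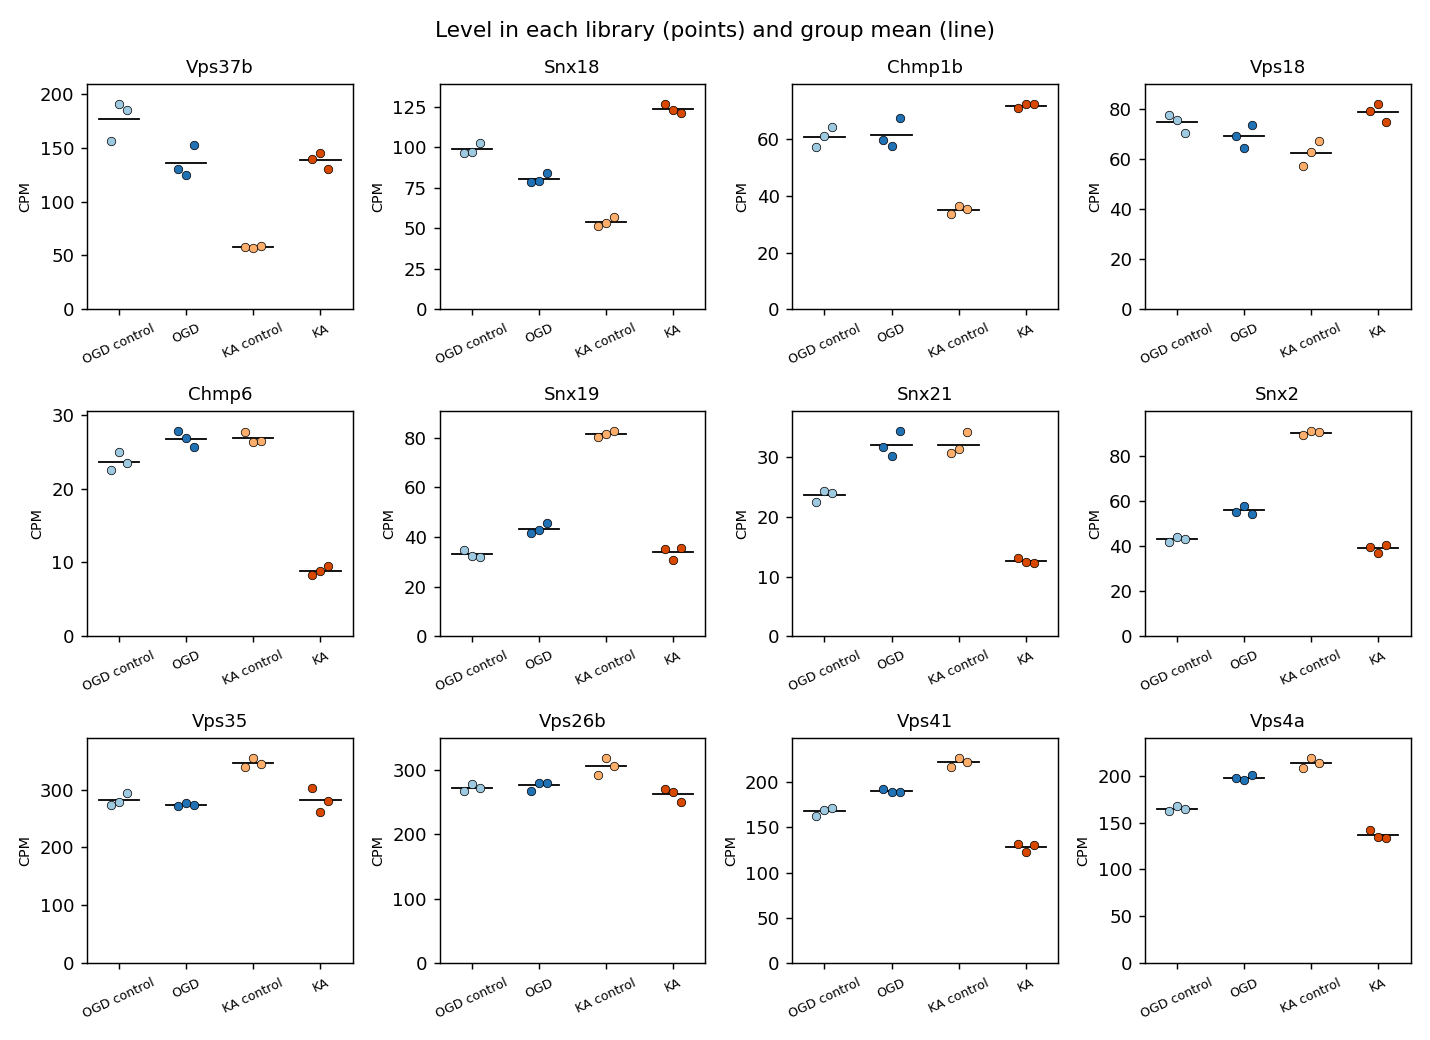
CPM (y axis, from 0) of 12 members in each of the 12 libraries (points) by group (x axis), with the group mean as a line. Without overlap, KA control lies below every other group for Vps37b, Snx18 and Chmp1b. It lies above every other group for Snx19, Snx2, Vps35, Vps26b, Vps41 and Vps4a.

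ESCRT-I carries 1 of 4 alternative Vps37 subunits, and these paralogues did not move together. Vps37b (chr5:124004641-124032270) was at 156, 191 and 185 CPM in OGD control, 131, 125 and 153 in OGD, 57.5, 56.5 and 58.97 in KA control and 139.5, 146 and 131 in KA. It rose 2.41-fold after KA (1.27 ± 0.07, adjusted p = 3.06e-16) and fell after OGD (-0.38 ± 0.06, adjusted p = 2.14e-05), with no overlap in either comparison. Its KA control was the lowest of the groups, and KA was still below OGD control (-0.36 ± 0.07, adjusted p = 2.72e-05). Vps37d was at 7.104, 7.22 and 6.17 CPM in OGD control, 8.27, 8.63 and 9.796 in OGD, 10.6, 10.2 and 11.3 in KA control and 5.897, 6.57 and 6.65 in KA. Here the direction was the opposite in both comparisons: it fell after KA (-0.74 ± 0.11, adjusted p = 3.11e-07) and rose after OGD (0.38 ± 0.11, adjusted p = 0.00515).

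Vps37c was at 27.3, 27.2 and 28.4 CPM in OGD control, 29.5, 27.4 and 29.3 in OGD, 32.6, 32.1 and 33.2 in KA control and 38.9, 38.7 and 36.2 in KA. Its KA libraries were the highest of all, and it rose slightly after KA (0.22 ± 0.06, adjusted p = 0.00133) with overlap in OGD (0.05). Vps37a passed neither test (0.08 after KA and 0.08 after OGD), and Vps28, the ESCRT-I subunit that binds ESCRT-II, rose after OGD alone by the test (0.17, against -0.02 after KA, adjusted p = 0.653). The responses to the 2 injuries differed for Vps28 (adjusted p = 0.0131). Of the exonic bases of Vps37b, 32.9% are shared with Hip1r on the opposite strand, and the kit did not mark strand. Hip1r itself was at -0.23 (adjusted p = 0.000131) after KA and 0.02 (adjusted p = 0.787) after OGD. The part of shared reads in the Vps37b values was not tested.

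Vps36, the only tested ESCRT-II gene with the Vps prefix, fell after KA (-0.54 ± 0.06, adjusted p = 4.01e-09) and did not pass the test after OGD (0.06). Of the 9 tested Chmp genes of ESCRT-III, 5 fell and 3 rose after KA, and 4 rose after OGD. None fell after OGD by edgeR, at an unadjusted p under 0.05 or by DESeq2. Of all genes tested, 37.6% fell and 35.2% rose after KA, and 17.6% rose and 20.5% fell after OGD. Chmp6 (chr11:119913441-119919548), which links ESCRT-II to filament assembly, showed the strongest fall of the Chmp genes. It was at 22.5, 24.9 and 23.5 CPM in OGD control, 27.8, 26.8 and 25.7 in OGD, 27.7, 26.3 and 26.5 in KA control and 8.24, 8.87 and 9.56 in KA. All KA libraries were below 10 CPM and all others above 20 CPM, a 3.01-fold fall (-1.59 ± 0.08, adjusted p = 4.83e-17), and it was also below OGD control (-1.42 ± 0.08, adjusted p = 1.15e-14). After OGD it rose slightly (0.17 ± 0.07, adjusted p = 0.041).

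Chmp1b, which forms tubular filaments with Ist1, was the Chmp gene that rose most. It was at 57.1, 60.99 and 64.3 CPM in OGD control, 59.8, 57.7 and 67.4 in OGD, 33.6, 36.5 and 35.3 in KA control and 70.9, 72.4 and 72.3 in KA. KA was above every other library and KA control below every other one, and the gene rose 2.04-fold (1.03 ± 0.06, adjusted p = 1.5e-15), with 23.97% of its exonic bases under an antisense transcript that the counts do not separate. OGD overlapped its control (0.02, adjusted p = 0.854). Chmp4b, the main polymerising subunit, was at 239.6, 240.1 and 232 CPM in OGD control, 250.2, 240.2 and 248 in OGD, 199, 198 and 192 in KA control and 247, 258 and 222 in KA. It rose after KA without overlap (0.31 ± 0.05, adjusted p = 1.12e-06), and the OGD libraries did not pass the test (0.05).

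Chmp2b, which caps the polymer and is mutated in a human frontotemporal dementia, was at 137, 136 and 146 CPM in OGD control, 135, 138 and 138 in OGD, 124, 124 and 118 in KA control and 149, 132 and 138 in KA. KA was above KA control without overlap (0.19 ± 0.05, adjusted p = 0.000751), and OGD overlapped its control (-0.03). KA and OGD control did not differ by the test (-0.01, adjusted p = 0.926), so the low group was KA control. Its paralogue Chmp2a went the other way, falling after KA (-0.15 ± 0.05, adjusted p = 0.00884) and rising after OGD (0.23 ± 0.05, adjusted p = 0.000583). Chmp1a, the paralogue of Chmp1b, also fell after KA (-0.53) and rose after OGD (0.16), as did Chmp3 (-0.62 and 0.23). Chmp7, which acts at the nuclear envelope, fell after KA (-0.22), and Chmp5 passed neither test.

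The Vps4 ATPases take ESCRT-III filaments apart. Vps4a was at 162, 167 and 164 CPM in OGD control, 197, 195 and 200.4 in OGD, 208, 218 and 214 in KA control and 142, 135 and 134 in KA. KA was the lowest group and OGD lay above its control, so Vps4a fell after KA (-0.64 ± 0.04, adjusted p = 3.48e-14) and rose after OGD (0.26 ± 0.04, adjusted p = 1.35e-05). Vps4b was at 50.6, 48.4 and 55.3 CPM in OGD control, 49.3, 51.6 and 53.4 in OGD, 67.2, 68.01 and 65.1 in KA control and 78.7, 69.9 and 72.01 in KA. It rose by little after KA (0.14 ± 0.06, adjusted p = 0.0293), and the call was lost without KA replicate 1, KA control replicate 1 or KA control replicate 3 (adjusted p 0.056 to 0.19) and with no filter on low counts (0.103). Its OGD value was -0.00034, with overlapping libraries. The KA response minus the OGD response was -0.91 for Vps4a (adjusted p = 5.01e-14) and 0.14 for Vps4b (adjusted p = 0.136).

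**Figure D3:**
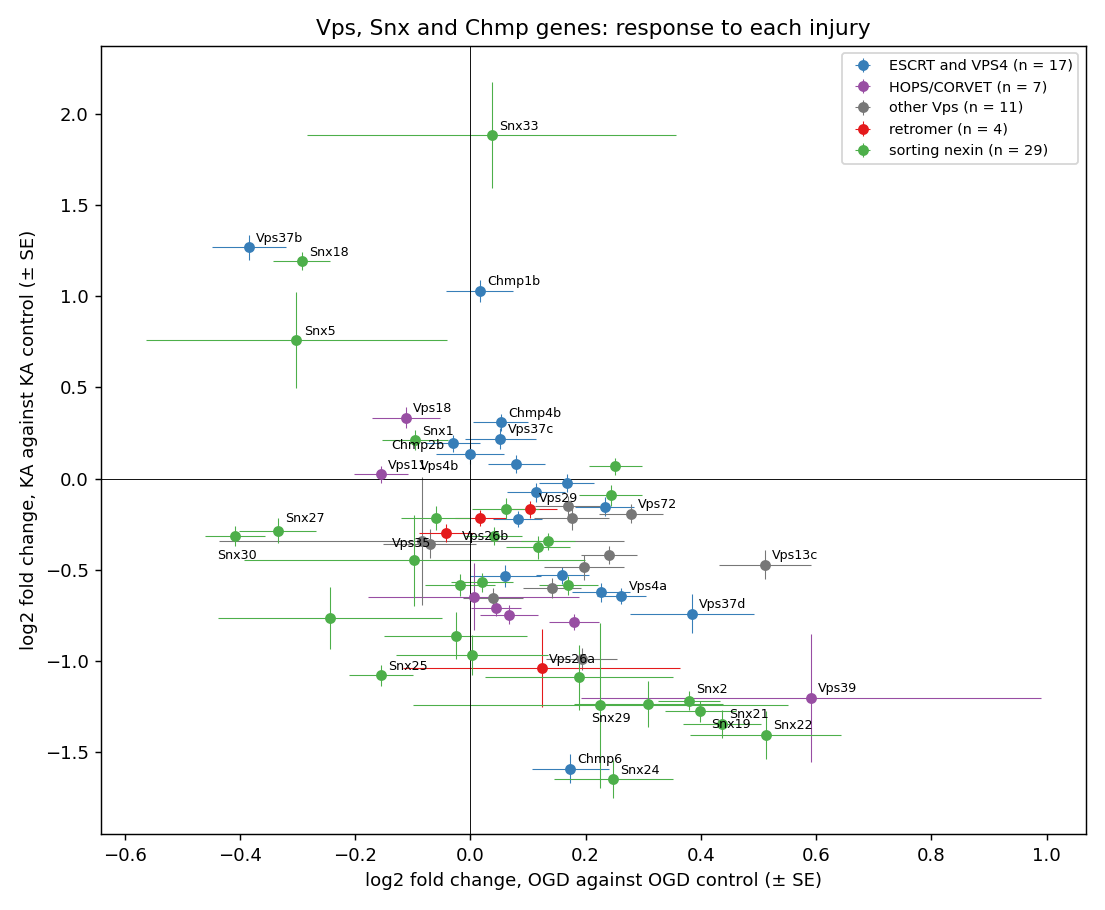
Log2 fold change after OGD (x axis) against that after KA (y axis), each from its own control, for the 68 tested members, coloured by complex, with bars of 1 SE. The cloud lies mostly at lower right, with Vps37b and Snx18 alone at upper left among members that passed both tests.

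Of the 29 tested sorting nexins, 22 fell and 4 rose after KA, and 8 rose and 4 fell after OGD. The 4 that rose after KA were all SNX-BAR proteins, which bend membrane through a BAR domain: Snx1, Snx5, Snx18 and Snx33. The other 8 SNX-BAR genes fell. Of the 10 SNX-PX, 3 SNX-FERM and 4 SNX-PXA-RGS genes tested, 7, 3 and 4 fell, and none rose by edgeR, at an unadjusted p under 0.05 or by DESeq2. Over all genes, 37.6% fell and 35.2% rose after KA, and 17.6% rose and 20.5% fell after OGD.

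Snx18 (chr13:113592179-113618564), an SH3-domain nexin that binds dynamin, was at 96.2, 97.3 and 102 CPM in OGD control, 78.7, 79.01 and 83.9 in OGD, 51.4, 53.5 and 57.1 in KA control and 127, 123 and 121 in KA. KA was the highest group and KA control the lowest, with no overlap in either comparison. It rose 2.29-fold after KA (1.19 ± 0.05, adjusted p = 4.92e-19) and fell after OGD (-0.29 ± 0.05, adjusted p = 2.19e-05), and it was above OGD control too (0.32 ± 0.05, adjusted p = 1.36e-06). Snx33, of the same SH3 subfamily, was near 1 CPM, at 0.535, 1.07 and 1.0996 CPM in OGD control, 1.32, 0.575 and 1.06 in OGD, 0.562, 0.429 and 0.767 in KA control and 2.18, 2.302 and 1.91 in KA. KA libraries were the highest (1.89 ± 0.29, adjusted p = 1.2e-06) and OGD overlapped its control. Snx9, the third of the subfamily, fell after KA (-0.77 ± 0.17, adjusted p = 0.000175).

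Snx1 and Snx2 pair with Snx5, Snx6 or Snx32 in the coat that returns receptors to the Golgi. Snx2 was at 41.6, 43.98 and 43.2 CPM in OGD control, 55.3, 57.96 and 54.4 in OGD, 89.3, 90.9 and 90.7 in KA control and 39.5, 36.8 and 40.6 in KA. It fell 2.33-fold from KA control (-1.22 ± 0.05, adjusted p = 9.05e-19) and rose after OGD (0.38 ± 0.05, adjusted p = 1.57e-06), with no overlap in either. KA was near the OGD control level (-0.15 ± 0.06, adjusted p = 0.0287). Snx1 was at 57.1, 54.8 and 51.3 CPM in OGD control, 54.6, 50.6 and 47.4 in OGD, 52.1, 54.01 and 55.3 in KA control and 62.8, 60.7 and 63.7 in KA. Its KA libraries were the highest, and it rose a little (0.21 ± 0.06, adjusted p = 0.00135), while OGD overlapped its control (-0.10).

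Snx5 was counted at 2.22, 1.25 and 1.41 CPM in OGD control, 1.57, 0.863 and 1.51 in OGD, 1.29, 0.902 and 1.07 in KA control and 1.62, 2.02 and 1.75 in KA. It rose after KA (0.76 ± 0.26, adjusted p = 0.0108) on few counts, and its OGD groups overlapped. Its partner-type paralogues Snx6 (-0.17) and Snx32 (-0.59) fell after KA, Snx6 with overlapping libraries. Snx32 shares 13.2% of its exonic bases with the much more abundant Cfl1 on the opposite strand, which rose after KA (0.72, adjusted p = 1.18e-15).

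Snx4, Snx7 and Snx30 act in recycling and autophagy. Snx30 was at 92.3, 96.4 and 97.9 CPM in OGD control, 67.5, 76.5 and 71.6 in OGD, 80.7, 82.2 and 83.7 in KA control and 68.98, 61.98 and 68.02 in KA. It fell after both injuries without overlap (-0.32 ± 0.05, adjusted p = 5.21e-06 for KA and -0.41 ± 0.05, adjusted p = 3.27e-07 for OGD), and the 2 responses did not differ by the test (0.09, adjusted p = 0.269). Snx7 was at 5.35, 4.89 and 6.598 CPM in OGD control, 5.58, 5.42 and 5.93 in OGD, 12.2, 13.8 and 13.9 in KA control and 6.79, 6.12 and 7.82 in KA. KA control stood above all other groups, and the gene fell from it after KA (-0.97 ± 0.11, adjusted p = 3.02e-09) with no OGD change detected (0.00 ± 0.13). Snx4 also fell after KA (-0.32), and Snx8, another SNX-BAR gene, was at 44.99, 44.3 and 42.8 CPM in OGD control, 49.1, 47.4 and 46.8 in OGD, 32.7, 32.03 and 30.1 in KA control and 26.01, 24.03 and 22.95 in KA. Snx8 was lowest in KA (-0.38 ± 0.06, adjusted p = 4.96e-06), and its KA control was already below OGD control (-0.48 ± 0.06, adjusted p = 1.78e-08).

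The SNX-PX genes held the strongest falls after KA, with a median of -0.98 over 10 tested. Snx24 was at 7.87, 8.06 and 8.61 CPM in OGD control, 8.65, 9.97 and 10.5 in OGD, 16.9, 16.4 and 17.2 in KA control and 6.22, 4.72 and 5.32 in KA. KA was lowest and KA control highest, a 3.14-fold fall (-1.65 ± 0.10, adjusted p = 9.43e-15), while the OGD value of 0.25 missed the threshold (adjusted p = 0.0588). Snx22 was at 4.74, 4.77 and 4.34 CPM in OGD control, 6.01, 6.66 and 6.997 in OGD, 9.21, 9.103 and 10.1 in KA control and 2.67, 4.27 and 3.49 in KA. It fell after KA (-1.41 ± 0.13, adjusted p = 6.34e-11) and rose after OGD (0.51 ± 0.13, adjusted p = 0.00248), and 28.5% of its exonic bases are shared with the opposite-strand gene Ppib, which rose after KA (0.24, adjusted p = 0.000119) and after OGD (0.13, adjusted p = 0.0348).

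Snx21 was at 22.5, 24.3 and 23.9 CPM in OGD control, 31.7, 30.1 and 34.3 in OGD, 30.7, 31.3 and 34.2 in KA control and 13.2, 12.5 and 12.3 in KA. KA lay below every other library (-1.34 ± 0.08, adjusted p = 8.62e-16), also against OGD control (-0.90 ± 0.08, adjusted p = 1.3e-10), and OGD rose above its control without overlap (0.44 ± 0.07, adjusted p = 7.97e-06). Snx29 was at 5.27, 6.27 and 5.74 CPM in OGD control, 6.83, 7.62 and 6.997 in OGD, 9.77, 11.9 and 11.2 in KA control and 5.57, 4.83 and 3.49 in KA. It fell after KA (-1.24 ± 0.13, adjusted p = 4e-10), and its OGD libraries were all above OGD control without passing the test (0.31, adjusted p = 0.0581). The highest SNX-PX level per length belonged to Snx3, which sorts the Wnt carrier Wntless with retromer; it rose after OGD (0.25 ± 0.05, adjusted p = 7.15e-05) and not by the test after KA (0.07). Its paralogue Snx12 had a like pattern (0.24 after OGD, called, and -0.09 after KA, not called). Snx10, Snx15 and Snx16 fell after KA (-1.09, -0.21 and -0.86), and Snx11 passed neither test.

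Snx27, a FERM and PDZ nexin that returns glutamate and adrenergic receptors to the surface with retromer, was at 29.7, 27.6 and 29.3 CPM in OGD control, 21.7, 22.7 and 24.1 in OGD, 25.4, 27.7 and 25.4 in KA control and 22.4, 20.8 and 21.5 in KA. Both injured groups lay below their controls without overlap, after OGD (-0.33 ± 0.07, adjusted p = 0.00021) and after KA (-0.29 ± 0.07, adjusted p = 0.000507). The difference between the responses was 0.05 ± 0.10 (adjusted p = 0.678). Snx17, a FERM nexin that recycles Lrp1, fell after KA (-0.35) and rose after OGD (0.13), and Snx31 fell after KA at under 1 CPM (-1.24 ± 0.45).

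All 4 SNX-PXA-RGS genes, which encode proteins of endoplasmic reticulum contacts, fell after KA and all 4 were higher in KA control than in OGD control. The shares of all genes were 37.6% and 34.5%. Snx19 was at 34.7, 32.3 and 31.9 CPM in OGD control, 41.5, 42.9 and 45.8 in OGD, 80.5, 81.4 and 82.6 in KA control and 35.1, 30.8 and 35.5 in KA. It fell 2.43-fold after KA (-1.28 ± 0.06, adjusted p = 3.98e-18) and rose after OGD (0.40 ± 0.06, adjusted p = 6.64e-06), but KA and OGD control overlapped (0.03 ± 0.07, adjusted p = 0.725). Snx25 was at 62.8, 63.3 and 65.4 CPM in OGD control, 55.8, 58.3 and 57.7 in OGD, 67.9, 72.5 and 70.4 in KA control and 36.9, 30.5 and 33.01 in KA. It fell after both injuries, by -1.08 after KA (adjusted p = 3.27e-16) and -0.16 after OGD (adjusted p = 0.0264), the OGD call being lost without OGD replicate 1, OGD replicate 3, OGD control replicate 2 or OGD control replicate 3 (adjusted p 0.0557 to 0.0992) and with no filter on low counts (0.0527). Unlike Snx19 it was also below OGD control after KA (-0.94 ± 0.06, adjusted p = 7.16e-14). Snx13 and Snx14, the latter a gene of a human cerebellar ataxia, fell after KA by -0.57 and -0.58.

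The GARP and EARP tethers receive endosome-derived carriers. Vps51, Vps52 and Vps53 fell after KA (-0.15, -0.42 and -0.66), and Vps51 and Vps52 rose after OGD (0.17 and 0.24). Of the bulk lipid carriers, Vps13c, a human Parkinson's disease gene, was at 31.5, 32.2 and 35.2 CPM in OGD control, 44.7, 51.2 and 45.2 in OGD, 49.7, 43.6 and 45.4 in KA control and 28.2, 32.5 and 39.3 in KA. OGD lay above OGD control without overlap (0.51 ± 0.08, adjusted p = 7.47e-06) and KA below KA control (-0.47 ± 0.08, adjusted p = 5.06e-06), and KA and OGD control did not differ by the test (0.01, adjusted p = 0.946). Vps13a and Vps13b fell after KA (-0.36 and -0.22), Vps13b rose after OGD (0.18) with overlapping libraries, and Vps13d passed neither test.

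Vps45, a Sec1/Munc18 protein of endosomal SNAREs, was at 37.96, 38.6 and 36.5 CPM in OGD control, 45.9, 43.7 and 39.8 in OGD, 58.2, 63.03 and 63.98 in KA control and 32.1, 29.8 and 31.7 in KA. It fell 1.99-fold after KA (-0.99 ± 0.06, adjusted p = 5.68e-15) and rose after OGD (0.19 ± 0.06, adjusted p = 0.0131). Vps33b, which works with Vipas39 in the CHEVI complex, fell after KA (-0.49) and rose after OGD (0.20), as did Vps9d1 (-0.60 and 0.14). Vps72, a chromatin protein that handles the histone variant H2A.Z and shares only its prefix with the rest, was at 42.4, 41.5 and 40.4 CPM in OGD control, 51.997, 47.5 and 51.4 in OGD, 57.02, 61.8 and 60.1 in KA control and 52.1, 53.3 and 51.1 in KA. It rose after OGD (0.28 ± 0.06, adjusted p = 0.000197) and fell by less after KA (-0.19 ± 0.05, adjusted p = 0.00187).

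**Figure D4:**
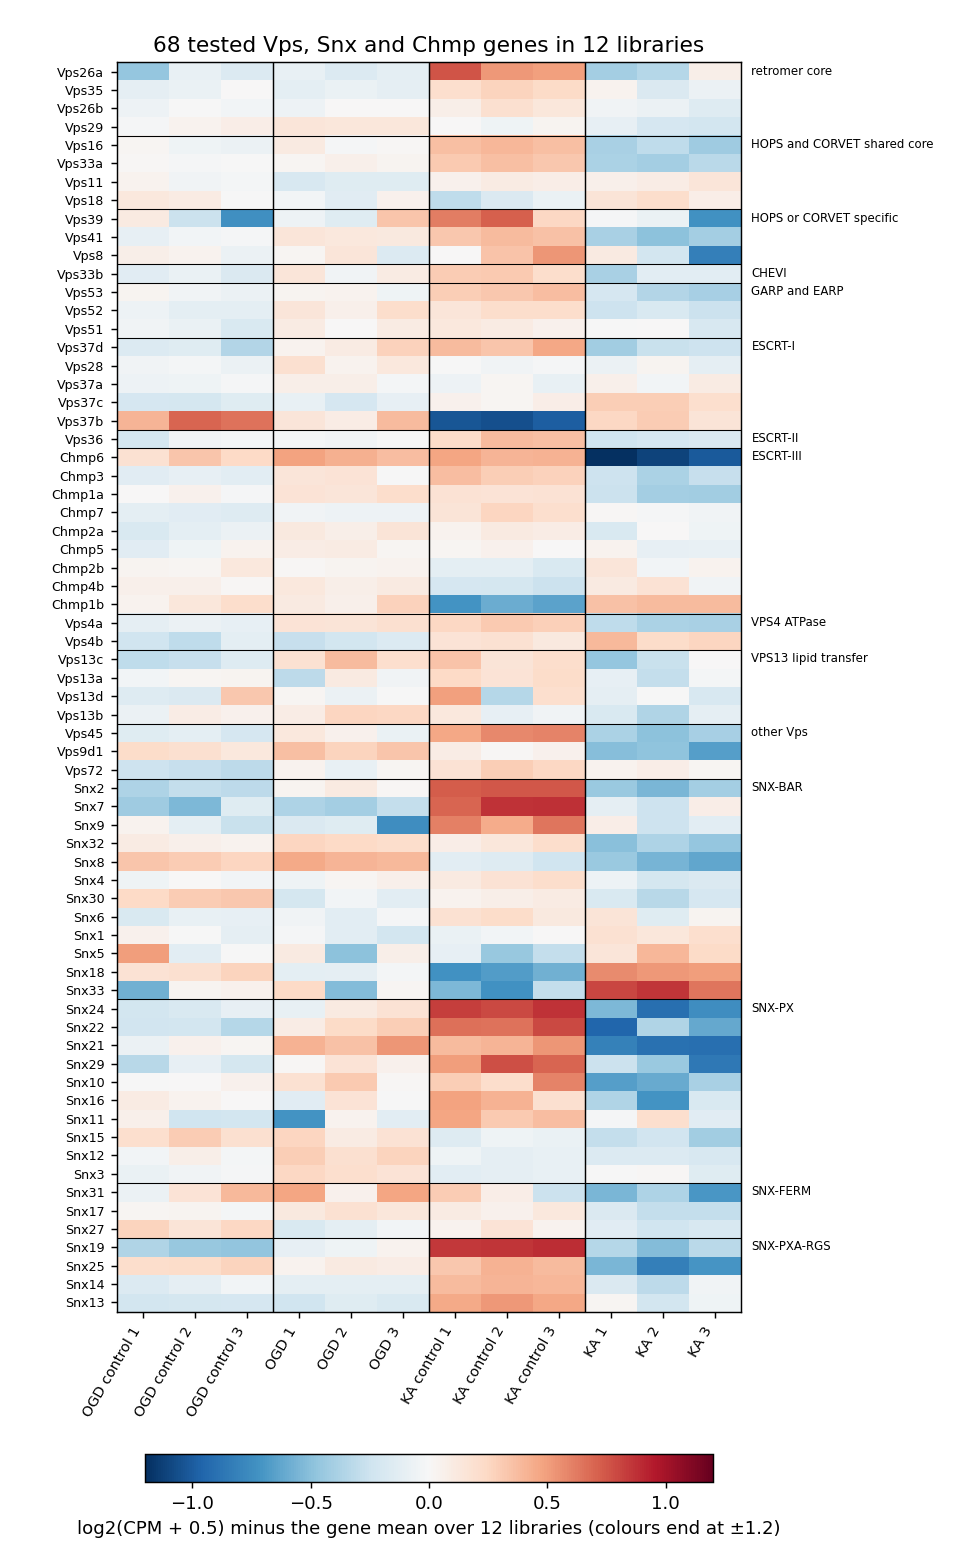
Log2(CPM + 0.5) of each of the 68 tested members in each of the 12 libraries minus the gene's mean over them, with genes in rows by class and libraries in columns by group. Red is above and blue below the gene's mean. KA control held the highest mean for 38 of the 68 genes, among them Snx19 and Snx2, a count not made over all genes. It held the lowest for several others, among them Vps37b, Chmp1b, Snx18, Snx33, Snx5, Chmp2b, Chmp4b and Vps18.

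The 2 treatment comparisons use separate libraries, so their calls can be set against each other. Of the 24 members that rose after OGD, 21 fell after KA (87.5%) and the other 3 passed no test there. Over all genes, 1473 of the 2315 that rose after OGD fell after KA (63.6%). Whatever their OGD call, 72.1% of tested members and 37.6% of all genes fell after KA. Whether a rise after OGD and a fall after KA go together more in members than elsewhere was not tested. Of the 6 that fell after OGD, 3 fell also after KA (Snx25, Snx27 and Snx30), 2 rose (Snx18 and Vps37b) and 1 passed no test there (Vps11). Over all genes that fell after OGD, 19.4% fell after KA, 62.5% rose and 18.1% passed no test there. A further 25 members fell and 9 rose after KA alone by the test, and 4 passed neither test (65.8%, 23.7% and 10.5% of those not called after OGD). Over all genes not called after OGD, the matching shares were 36.2%, 30.7% and 33.2%. The difference of the responses was tested directly: it was lower for KA in 49 members and higher in 10 (median -0.49), where 34.4% and 33.8% of all genes were called. Snx33, Vps37b, Snx18 and Snx5 had the largest positive differences (1.85, 1.65, 1.49 and 1.06), and Snx22, Snx24, Vps39 and Snx21 the largest negative ones (-1.92, -1.899, -1.79 and -1.78). The adjusted p was at most 0.0125, the value for Snx5, whose call was lost without OGD replicate 2 (0.0552), without OGD control replicate 1 (0.0633) and with DESeq2 (0.0512). The injuries differ in agent and were set in separate groups with their own controls, and the length of each is unknown, so the kind of injury and the experiment cannot be told apart.

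The untreated controls themselves differed. In KA control 41 of 68 members were higher and 10 lower than in OGD control (median 0.22), where 34.5% of all genes were higher and 34.2% lower. KA control held the highest mean of the 4 groups for 38 members, OGD for 15, KA for 10 and OGD control for 5. The highest group was not counted over all genes, so these numbers have no baseline here. Vps39, Snx19, Snx7 and Snx2 were the most raised in KA control (1.33, 1.31, 1.25 and 1.07), and, among members that passed the test, Vps37b, Snx18, Chmp1b and Snx8 the most reduced (-1.62, -0.87, -0.79 and -0.48, adjusted p at most 0.00129 over the 8). The labels give no treatment to either control, so the experiment and any difference of culture cannot be told apart.

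The reading of each injury against the other experiment's control shares libraries with the comparisons above. KA against OGD control gave 30 members lower and 8 higher (median -0.12), beside 28.3% and 29.3% of all genes. OGD against KA control gave 36 lower and 14 higher (median -0.19), beside 34.1% and 33.2%. Of the 30 members called after OGD, 9 had the same call against KA control, 9 lost it and 12 were called in the opposite direction, among them Snx18, Vps37b, Snx2 and Snx19. Of the 60 called after KA, 34 had the same call against OGD control, 23 lost it and 3 were opposite (Chmp7, Vps37b and Vps72). Chmp6, Snx21, Snx25, Vps16, Vps33a and Vps41 were lower in KA than in either control, at -1.42, -0.90, -0.94, -0.34, -0.37 and -0.38 from OGD control (adjusted p at most 2.78e-06). Snx19, Vps35, Vps26b and Vps13c were not (0.03, -0.01, -0.05 and 0.01). Snx18 and Chmp1b in KA were above both controls, Chmp1b by 0.24 from OGD control (adjusted p = 0.000832), whereas Vps37b in KA lay between them.

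Markers of cell types moved with the groups. The 7 markers of neurons in general summed to 7278 to 7848 CPM in KA and 5571 to 5637 in KA control. In OGD they summed to 6295 to 6448 CPM and in OGD control to 5913 to 6239. Of the 6 tested, 3 rose and 1 fell after KA, and 1 rose and 2 fell after OGD. In KA control 1 was higher and 4 were lower than in OGD control. Rbfox3 did not pass the filter on low counts. The 9 astrocyte markers summed to 79.2 to 219.7 CPM over all libraries. Excitatory neuron markers summed to 3231 to 3425 CPM in KA and 1497 to 1520 in KA control, and 8 of 8 rose. In OGD they summed to 1324 to 1358 CPM and in its control to 1771 to 1949, and 5 of 8 fell. Inhibitory neuron markers summed to 1733 to 1791 CPM in KA, 1074 to 1080 in KA control, 2921 to 3012 in OGD and 3285 to 3471 in OGD control. In KA 5 of 7 of these rose and 2 fell, in OGD 5 of 7 fell, and 7 of 7 were lower in KA control than in OGD control. Among all genes, 35.2% rose and 37.6% fell after KA, and 17.6% rose and 20.5% fell after OGD. In KA control 34.5% were higher and 34.2% lower than in OGD control. Astrocyte markers summed to 201.9 to 219.7 CPM in KA against 79.2 to 80.7 in its control, and 90.3 to 101.8 in OGD against 112.6 to 126.8. Of the rest, microglial markers summed to at most 9.49 CPM, endothelial ones to at most 3.64, oligodendrocyte ones to at most 45.99 and fibroblast or mural ones to at most 20.8. The fibroblast or mural sum was 18.5 to 19.1 CPM in KA against 5.71 to 5.88 in KA control. Lhx6, an interneuron factor, and Pdgfrb, of mural cells, were at 0 in every library. The part of these shifts in the member values was not tested.

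Among partner genes, the COMMD and CCC complex, which works with Snx17 in recycling, had 12 genes tested, of which 8 fell after KA and 5 rose after OGD. None rose after KA or fell after OGD by edgeR or DESeq2; at an unadjusted p under 0.05 none rose after KA and 1 fell after OGD. Its medians were -0.38 and 0.18, beside -0.02 and 0.01 over all genes. Among all genes tested, 37.6% fell after KA and 17.6% rose after OGD. Commd8 was at 29.3, 31.5 and 29.8 CPM in OGD control, 37.8, 38.5 and 37.6 in OGD, 57.7, 61.7 and 65.5 in KA control and 23.1, 18.4 and 18.4 in KA. KA was the lowest group and KA control the highest, and the KA fold change was -1.64 ± 0.07, adjusted p = 1.12e-18. Commd9 was at 33.4, 31.7 and 28.7 CPM in OGD control, 38.1, 37.5 and 41.3 in OGD, 36.9, 36.5 and 39.7 in KA control and 19.9, 17.01 and 17.1 in KA, falling after KA (-1.07 ± 0.07, adjusted p = 7.94e-14) and rising after OGD (0.32 ± 0.07, adjusted p = 0.00034). Commd10 was at 24.2, 24.5 and 21.99 CPM in OGD control, 27.9, 29.1 and 30.3 in OGD, 27.5, 26.2 and 26.3 in KA control and 22.1, 22.2 and 22.5 in KA, and rose after OGD (0.31 ± 0.07, adjusted p = 0.000385) without overlap.

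The WASH complex makes actin patches on retromer endosomes. Of its 4 tested genes 3 rose after OGD and 3 fell after KA, and none went the other way by edgeR, at an unadjusted p under 0.05 or by DESeq2. The shares of all genes were 17.6% up after OGD and 37.6% down after KA. E430025E21Rik, the older symbol of Washc5 (strumpellin), was at 53.6, 52.2 and 50.9 CPM in OGD control, 61.5, 63.1 and 59.95 in OGD, 83.8, 84.2 and 83.4 in KA control and 44.4, 37.4 and 45.2 in KA. KA was below and OGD above its own control without overlap (-0.997 ± 0.06, adjusted p = 1.22e-15 for KA and 0.24 ± 0.06, adjusted p = 0.00139 for OGD). Fam21, the older symbol of Washc2, which binds Vps35, was at 109, 104 and 108 CPM in OGD control, 118, 121 and 128 in OGD, 154, 168 and 161 in KA control and 117, 111 and 117 in KA, falling after KA (-0.49 ± 0.05, adjusted p = 1.44e-10) and rising after OGD (0.20 ± 0.05, adjusted p = 0.00145).

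Partner subunits of ESCRT were mixed, with 5 of 12 up and 4 down after KA, and 3 up and 1 down after OGD. Over all genes tested, 35.2% rose and 37.6% fell after KA, and 17.6% rose and 20.5% fell after OGD. Whether the list departs from these shares was not tested. Ptpn23, the phosphatase-like protein that takes cargo from ESCRT-0 to ESCRT-III, was at 208, 191 and 197 CPM in OGD control, 213, 196 and 204 in OGD, 135, 133 and 137 in KA control and 248, 316 and 293 in KA. It rose after KA (1.08 ± 0.06, adjusted p = 2.71e-16) and was not called after OGD. Mvb12b, an ESCRT-I subunit, was at 293, 292 and 273 CPM in OGD control, 288, 305 and 303 in OGD, 313, 297 and 307 in KA control and 189, 175 and 172 in KA, and fell after KA (-0.77 ± 0.05, adjusted p = 2.75e-15). Vta1, the activator of Vps4, was at 57.7, 57.6 and 58.8 CPM in OGD control, 72.3, 71.9 and 71.6 in OGD, 83.8, 76.2 and 80.2 in KA control and 53.6, 54.8 and 45.2 in KA, and rose after OGD (0.31 ± 0.06, adjusted p = 7.73e-05). Ist1, the filament partner of Chmp1b, was at 156, 156 and 167 CPM in OGD control, 142, 139 and 136 in OGD, 134, 137 and 134 in KA control and 169, 183 and 177 in KA, and fell after OGD (-0.20 ± 0.05, adjusted p = 0.000751) while rising after KA (0.39 ± 0.05, adjusted p = 7.84e-09).

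Of 8 tested cargo receptors of retromer, 3 rose and 1 fell after KA, and after OGD 2 fell and none rose by edgeR, at an unadjusted p under 0.05 or by DESeq2. Beside these stand 35.2% of all genes up and 37.6% down after KA, and 20.5% down and 17.6% up after OGD. Sorl1, the receptor that steers the amyloid precursor protein, was at 79.1, 78.8 and 80.1 CPM in OGD control, 75.99, 81.2 and 74.2 in OGD, 72.7, 68.4 and 75.4 in KA control and 144, 153 and 163 in KA. KA was above KA control in all libraries (1.09 ± 0.05, adjusted p = 9.24e-18) and no OGD change was detected. Sorcs3, a sortilin-family receptor of synapses, was at 65.9, 59.9 and 61.1 CPM in OGD control, 44.3, 47.9 and 44.5 in OGD, 54.4, 55.2 and 57.1 in KA control and 103, 94.8 and 108 in KA, rising after KA (0.87 ± 0.05, adjusted p = 5.85e-15) and falling after OGD (-0.45 ± 0.06, adjusted p = 3.7e-07). M6pr, the cation-dependent mannose 6-phosphate receptor, was at 45.6, 44.8 and 43.9 CPM in OGD control, 40.2, 40.9 and 39.1 in OGD, 47.02, 50.02 and 48.04 in KA control and 52.3, 50.5 and 51.1 in KA, and fell slightly after OGD (-0.16 ± 0.05, adjusted p = 0.0192).

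The makers and converters of the lipid PI3P, to which PX domains bind, split as 2 up and 3 down of 9 after KA and 2 and 2 after OGD. All genes split as 35.2% up and 37.6% down after KA and 17.6% and 20.5% after OGD. Pik3c3, the PI3P kinase, was at 23.8, 23.5 and 25.05 CPM in OGD control, 25.6, 26.1 and 25.3 in OGD, 57.97, 56.7 and 59.2 in KA control and 27.1, 23.7 and 27.4 in KA, and fell after KA (-1.16 ± 0.06, adjusted p = 8.57e-17). Pikfyve, which turns PI3P into its bisphosphate, was at 94.9, 94.6 and 100.1 CPM in OGD control, 72.1, 76.04 and 71.3 in OGD, 82.4, 83.04 and 82.1 in KA control and 111, 105 and 122 in KA. It fell after OGD (-0.40 ± 0.05, adjusted p = 5.04e-07) and rose after KA (0.44 ± 0.05, adjusted p = 5.74e-09). Its partners Fig4, at 43.7, 41.7 and 42.2 CPM in OGD control, 41.8, 42.1 and 40.9 in OGD, 81.7, 81.3 and 80.3 in KA control and 55.3, 49.7 and 53.6 in KA, and Vac14, at 67.8, 71.6 and 67.5 CPM in OGD control, 82.5, 77.7 and 80.6 in OGD, 70.6, 73.9 and 75.4 in KA control and 57.3, 58.4 and 54.1 in KA, fell after KA (-0.62 ± 0.05, adjusted p = 3.01e-12 and -0.37 ± 0.05, adjusted p = 1.63e-07), and Vac14 rose after OGD (0.22 ± 0.05, adjusted p = 0.000879).

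Of the endosomal Rab GTPases and their effectors, 6 of 23 rose and 11 fell after KA, and 6 rose and 3 fell after OGD. The matching shares of all genes were 35.2% and 37.6% after KA and 17.6% and 20.5% after OGD. Rab5b, of early endosomes, was at 172, 172 and 167 CPM in OGD control, 199, 198 and 198 in OGD, 198, 202 and 196 in KA control and 122, 115 and 119 in KA, and fell after KA (-0.75 ± 0.04, adjusted p = 1.01e-15). Ccz1, a subunit of the exchange factor for Rab7, was at 55.4, 55.8 and 56.3 CPM in OGD control, 67.9, 67.2 and 69.1 in OGD, 75.8, 79.99 and 82.5 in KA control and 50.5, 48.7 and 51.6 in KA, falling after KA (-0.66 ± 0.05, adjusted p = 6.21e-13) and rising after OGD (0.29 ± 0.05, adjusted p = 3.71e-05). Rab35, of recycling routes, was at 146, 144 and 147 CPM in OGD control, 125, 125 and 118 in OGD, 138, 136 and 137 in KA control and 136, 130.3 and 133 in KA, and fell after OGD (-0.25 ± 0.04, adjusted p = 3.93e-05).

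Levels between genes are comparable only per length. Per kilobase of longest annotated transcript, the mean over 12 libraries was highest for Chmp4b (143 CPM per kb), Snx3 (121), Chmp2a (83.9), Vps4a (81.8), Chmp1a (79.7) and Vps26b (77.99), and lowest among tested members for Vps13d (0.0472). Of 34 members with 2 or more curated RefSeq transcripts, 10 averaged under 5 CPM, against 4 of 38 with 1; whether transcript number bears on the counting was not tested. The 4 members that were not tested stayed under 1 CPM in every library. Vps25, of ESCRT-II, shares 67.2% of its exonic bases with Ramp2 on the same strand. What this overlap does to the Vps25 counts was not tested. Snx20 was at 0.153, 0.119 and 0.305 CPM in OGD control, 0.376, 0.192 and 0.336 in OGD, 0.393, 0.258 and 0.256 in KA control and 0, 0.225 and 0 in KA, and the counts of 0 in KA replicates 1 and 3 allow up to 0.242 and 0.249 CPM (3 counts, counting error only).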

How the data were processed

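Total RNA of primary mouse neurons, from RNeasy extraction, was the input to 12 sequencing libraries made with the TruSeq RNA v2 kit, per the labels' protocols. That kit keeps no strand information. The authors deposited 1 table of raw counts per gene, named by symbol. The submitters' processing notes name bcl2fastq 1.8.4, TopHat 1.4.1, HTSeq 0.6.1 and build mm10, and the labels state neither the counting settings nor the annotation. Columns headed OGT were matched to the samples titled OGD, which differ by 1 letter. How reads on overlapping genes were counted is not stated, so their counts are uncertain.

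The deposited counts were analysed with edgeR 4.0.16 in R 4.3.3 (filterByExpr with a minimum count of 10, TMM, glmQLFit and glmQLFTest on the 4 group means, 8 residual degrees of freedom, Benjamini-Hochberg adjustment over 13139 genes, threshold 0.05). The script was tested on simulated data. Totals of 12873444 to 21142267 counts and a common biological coefficient of variation of 0.0402 set the precision. Counts of every replicate pair were farther apart than counting error alone gives (chi-square over its degrees of freedom, 1.49 to 6.19). The ratio was 4.11 to 6.19 in KA, 1.49 to 2.15 in KA control, 2.27 to 3.33 in OGD and 2.07 to 2.89 in OGD control. The fit shares 1 estimate of the spread per gene over the 4 groups, so the SEs do not hold the wider KA spread apart. Gene positions come from GENCODE M21, which matched all 72 members, and upstream sequences from RefSeq on GRCm38.p6; protein sequences were not used here.

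Members and gene lists were chosen with earlier results of these data known. Named members were, in each treatment comparison, the up to 8 called ones with the largest fold change in each direction, a mean of at least 2 log2 CPM and no overlap between libraries; the retromer core, Chmp2b, Vps4a, Vps4b and Snx27 whatever their values; the 4 largest differences of responses and of controls in each direction; and from each partner list the up to 2 genes of smallest adjusted p per treatment. Vps16, Vps33a, Vps41, Vps45 and Snx20 were given in full after their values were seen. Other members are given by complex. In the partner lists, 2 wrong older symbols for a WASH subunit were replaced by the right one after values were seen. Alternatives were DESeq2 1.42.0 as the test, DESeq2's scaling with edgeR's test, other count filters, a replicate block, fits of the groups compared alone, each library left out, genes with 1 transcript and removal of a trend with transcript length. Exchanging the controls was added after the data were seen.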

Additional observations from a re-analysis of the deposited data

Results flagged for a closer look

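The response to KA and the response to OGD were compared in a direct test of the difference, and the 4 largest called differences in each direction are given here, from the interaction contrast of edgeR's quasi-likelihood fit. The KA response exceeded the OGD response by 1.85 on the log2 scale for Snx33, 1.65 for Vps37b, 1.49 for Snx18 and 1.06 for Snx5. It fell short of it, with differences of -1.92 for Snx22, -1.90 for Snx24, -1.79 for Vps39 and -1.78 for Snx21. Snx33, Snx5 and Vps39 had few counts, with group means of 0.54 to 2.13 CPM, and the Snx5 difference was lost in 2 of the fits that left out a library. Each difference takes in both controls, and KA control was the lowest group for Snx33, Vps37b, Snx18 and Snx5 and the highest for Snx22, Snx24, Vps39 and, by a narrow margin over OGD, Snx21. The part of the controls in these differences was not tested.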

How the results depend on the processing

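Depth limits the 14 of 72 members that averaged under 5 CPM: 4 were not tested, and the fold changes of the other 10 have the widest errors. Over the fits that left out 1 library, members higher and lower after OGD numbered 18 to 27 and 5 to 6 (24 and 6 with all libraries), after KA 10 to 12 and 46 to 49 (11 and 49), in the difference of responses 8 to 10 and 46 to 50 (10 and 49), and between the controls 37 to 42 and 10 to 11 (41 and 10). With KA control in place of OGD control, 14 members were higher and 36 lower after OGD, and 30 were lower in KA when set against OGD control. Among genes with 1 transcript only 36 members were tested, and fewer were called by that construction: 15 higher and 3 lower after OGD, 24 lower after KA, 23 lower in the difference and 20 higher in KA control. The KA median there was -0.24, against -0.40 over all tested members.

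Of 1148 values of named members under the alternatives other than exchanging the controls, 1121 kept their direction and their side of the threshold, 12 lost the call, 1 gained it and 14 changed sign, none of these last being past the threshold. The sign changes were Chmp2b after OGD (-0.04975 to 0.003339 without single libraries) and Vps4b after OGD, which was close to 0 throughout: 0.013 with no count filter, 0.00758 with only the groups compared, 0.011 among genes with 1 transcript, 0.027 with the length trend removed, and -0.04495 to 0.05828 without single libraries. Calls were lost for Snx25 after OGD (5 settings), Vps4b after KA (4) and Snx5 in the difference (3), and Vps29 after OGD was called with only the groups compared (adjusted p = 0.038). The cause was not tested. Under the same alternatives, 21 of 79 medians moved by more than the spread between replicates and none changed sign. Exchanging the controls turned the OGD median from 0.08 to -0.19 and moved the KA median from -0.40 to -0.12. The exchange gave the opposite call for 12 of the 30 members called after OGD and 3 of the 60 called after KA, counts not made over all genes. A fit of only the groups compared was not run for the difference, which uses all 4 groups.

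Deviations of same-numbered treated and control libraries correlated at 0.026 to 0.046 in OGD and -0.048 to -0.038 in KA. Those of differently numbered ones correlated at -0.031 to 0.0068 in OGD and -0.0078 to 0.051 in KA. With 3 libraries per group, values this weak cannot tell whether the replicate numbers pair the samples. With the replicate block, 23 members were higher and 6 lower after OGD and 11 and 49 after KA, and Vps4b after OGD was at 0.0019. The block changed no other call among named members.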
